A study of Mus musculus with 6 samples.

Results

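The genes described are Klotho (Kl), 5 fibroblast growth factor (FGF) ligands (Fgf1, Fgf2, Fgf7, Fgf9 and Fgf10) and the 4 signalling FGF receptors (Fgfr1, Fgfr2, Fgfr3 and Fgfr4), 10 of the 18849 genes in the deposited table. They were taken by gene symbol, and all 10 were found. Messenger RNA of whole kidney was sequenced in 6 libraries, all from male C57BL/6 mice aged 8 weeks, after 14 days of unilateral ureteral obstruction (UUO), in which a tied ureter injures the tubules and scars the kidney. The 3 knockout libraries came from c-AblEpi-cKO mice, which carry floxed c-Abl (Abl1) alleles and the Ksp-Cre transgene, and their genotype label reads c-Abl knockdown. The 3 floxed libraries came from c-Ablflox/flox mice without the transgene, which their genotype label calls WT. Ksp-Cre is driven by the promoter of kidney-specific cadherin and is active in tubule epithelium, so other cells of the kidney are not its target. Every kidney of both genotypes was obstructed, and unobstructed kidneys were not analysed here. The labels do not say that each library came from its own mouse, so the tests measure the spread between libraries.

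Klotho is a membrane protein of kidney tubule cells, made mostly in the distal tubule and at lower levels in the proximal tubule, and it is known to decline in injured kidneys. It binds FGF receptors and turns them into receptors for FGF23, a bone hormone that lowers phosphate uptake and vitamin D activation in the tubule. The other FGFs named here bind heparan sulphate near the cell that makes them and signal through receptor tyrosine kinases to the Ras and MAP kinase relay. Fgf2 is a mitogen of fibroblasts, Fgf7 and Fgf10 are made by stroma and act on epithelium through a splice form of Fgfr2, and Fgf9 keeps nephron progenitors alive in the developing kidney.

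Levels are FPKM, fragments per kilobase of gene, scaled to the mapped fragments of the library, so they can be compared between genes. The spacing of low values implied about 15700000 to 17600000 fragments per library. Abl1 was lower in all 3 knockout libraries, at 10.46, 14.45 and 12.91 FPKM, against 18.16, 15.93 and 17.33 FPKM in floxed replicates 1, 2 and 3 (limma adjusted p = 0.144, exact two-sided permutation p = 0.1, the smallest that 3 against 3 libraries allow). Being lower in every knockout library than in any floxed one was shared by 21.7% of all tested genes, so it does not set Abl1 apart. Knockout replicate 3 stood apart from its group. On the first principal component, with 61.8% of the variance, it lay at -7.48, knockout replicates 1 and 2 lay at 54.1 and 37.4, and the floxed libraries lay between -29.0 and -26.2. Counts and calls that it moves are therefore also given without it. It was singled out after the values were seen. Leaving out the knockout library nearest to the floxed ones favours a difference, so those calls are no independent support. Markers of 9 cell groups were looked up, and no marker was at 0 in every library, a condition too mild to test kidney origin.

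No member passed the test. Across the 13390 genes with at least 1 FPKM in at least 3 libraries, 0.0672% passed limma with Benjamini-Hochberg adjustment at 0.05. Of the 8 members tested, each above 1 FPKM in every library, 0 passed, and their adjusted p lay between 0.119 and 0.991. The unadjusted limma p was under 0.05 for 2 of 8, Fgf2 and Fgfr4, against 24.7% of all tested genes. The log2 fold changes of log2(FPKM + 1), knockout minus floxed, had a median of 0.25 over the 8 members and -0.12 over all tested genes. Without knockout replicate 3 the count was 3 of 8 (Kl, Fgf2 and Fgfr1), against 24.4% of all tested genes. Fgf7 and Fgf10 stayed under 1 FPKM in every library and were left out of the fit.

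**Figure D1:**
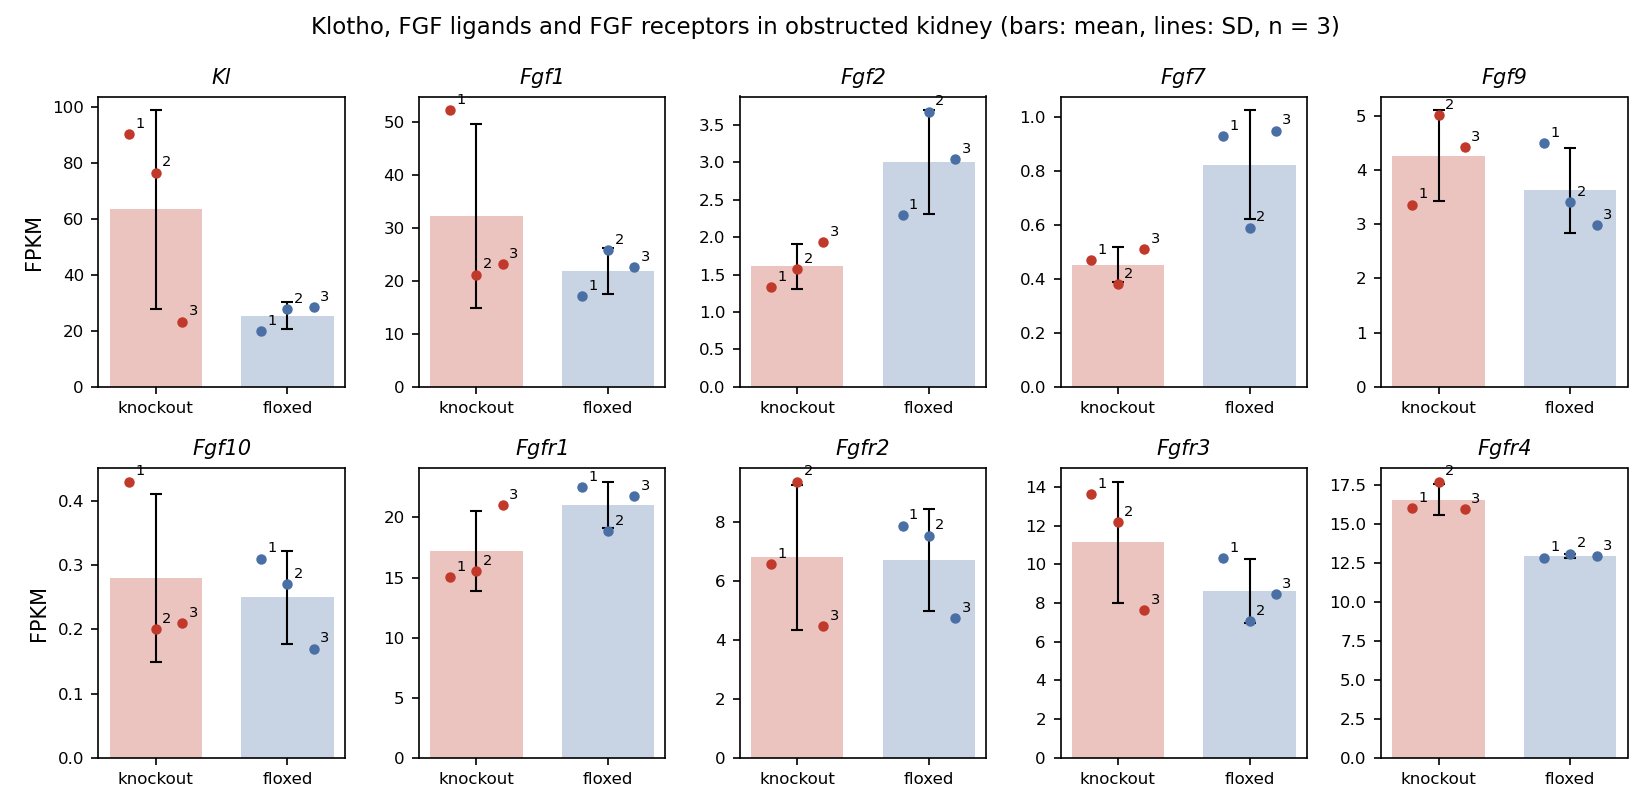
FPKM of each of the 10 genes in the 3 knockout libraries (red, left) and the 3 floxed libraries (blue, right); bars are means, lines are SD (n = 3 each) and the small numbers are replicate numbers. Every vertical axis starts at 0 and has its own scale. The groups are separate for Fgf2, Fgf7 and Fgfr4, and Kl in knockout replicate 3 sits among the floxed libraries.

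Kl had the highest mean of the 10 genes in both genotypes and the widest spread among knockout libraries. It read 90.51, 76.61 and 23.27 FPKM in knockout replicates 1, 2 and 3, against 19.89, 27.86 and 28.55 FPKM in floxed replicates 1, 2 and 3. Knockout replicates 1 and 2 were far above every floxed library, while knockout replicate 3 lay within the floxed range, so the groups overlapped. The means were 63.5 ± 35.5 FPKM in knockout and 25.4 ± 4.81 FPKM in floxed kidneys (SD, n = 3 each), a ratio of 2.50. The log2 fold change was 1.09 (SE 0.482, 95% interval -0.05 to 2.23, limma adjusted p = 0.217). It was 1.69 (SE 0.182, limma adjusted p = 0.00433) without knockout replicate 3, and 0.73 (limma adjusted p = 0.506) without knockout replicate 1. Gene-level values do not separate the membrane form of Klotho from its shorter secreted splice form.

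Markers of the tubule segments in which Kl is made moved in step with it in part. Summed over 10 proximal tubule markers, expression was 5143, 3794 and 1187 FPKM in knockout replicates 1, 2 and 3, against 896, 1273 and 1446 FPKM in floxed replicates 1, 2 and 3. As with Kl, the sum was high in knockout replicates 1 and 2 and within the floxed range in replicate 3, although 3 of the 10 markers (Cubn, Slc5a12 and Slc22a8) were above every floxed library in replicate 3 as well. Slc34a1 and Slc27a2 made up most of the sum. None of the 10 markers passed the limma threshold with all libraries. Without knockout replicate 3, 10 of 10 passed as higher, against 24.4% of all tested genes in either direction. Over 9 markers of the distal convoluted and connecting tubule the sums were 1360, 2454 and 666 FPKM in knockout replicates 1, 2 and 3, against 454, 314 and 315 FPKM in floxed replicates 1, 2 and 3. Here the sum in all 3 knockout libraries was above all floxed ones. Klk1 and S100g made up most of it in the knockout libraries. Of the 8 markers tested, 7 had a log2 fold change above 0, and 3 (Klk1, S100g and Wnk4) were separate between the groups. Slc12a3 split as Kl did, at 145, 198 and 31.8 FPKM in knockout replicates 1, 2 and 3, against 67.6, 63.0 and 25.0 FPKM in floxed replicates 1, 2 and 3. None of the 8 passed the limma threshold with all libraries. Without knockout replicate 3, 6 passed as higher, against 24.4% of all tested genes in either direction. Kl amounted to 66.6, 31.2 and 34.9 FPKM per 1000 FPKM of these distal markers in knockout replicates 1, 2 and 3, against 43.8, 88.7 and 90.7 in floxed replicates 1, 2 and 3, with overlap between the groups. In whole tissue, fewer cells of a type and less RNA per cell cannot be told apart, and the part of cell composition in the Kl values was not tested. The 4 tested genes whose profile over the 6 libraries lay nearest to that of Kl were Pecr, 4931406C07Rik, Slc6a20b and Khk. Their mean absolute difference from Kl, on centred log2(FPKM + 1) values, was 0.0904 to 0.112, against a median of 0.840 over all tested genes.

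The promoter of Kl is shown because Kl had the largest log2 fold change of the 8 tested members. The window (chr5:150952357-150952656, plus strand, RefSeq, GRCm38.p6) holds 250 bases before the transcription start and 50 after it, and 67.3% of its bases are G or C, against a median of 52.7% over all 32851 promoter windows used. Capitals mark matches on either strand to the GC box GGGCGG, the TATA box TATAAA, the CCAAT box CCAAT, the AP-1 motif TGANTCA and the TCF/LEF core CTTTGAN, the letters that factors of the Wnt pathway bind. These letters occur in 35.7%, 13.6%, 37.4%, 7.81% and 16.0% of all windows in the order given. The Kl window holds 3 GC boxes and 0 matches to the other motifs, and a match is a description of letters only.
Kl promoter: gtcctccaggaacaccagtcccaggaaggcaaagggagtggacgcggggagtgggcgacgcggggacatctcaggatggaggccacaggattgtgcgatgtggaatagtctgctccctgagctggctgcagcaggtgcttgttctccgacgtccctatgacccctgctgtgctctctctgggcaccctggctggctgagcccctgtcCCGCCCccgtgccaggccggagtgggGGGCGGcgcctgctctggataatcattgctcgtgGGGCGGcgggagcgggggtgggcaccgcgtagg

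**Figure D2:**
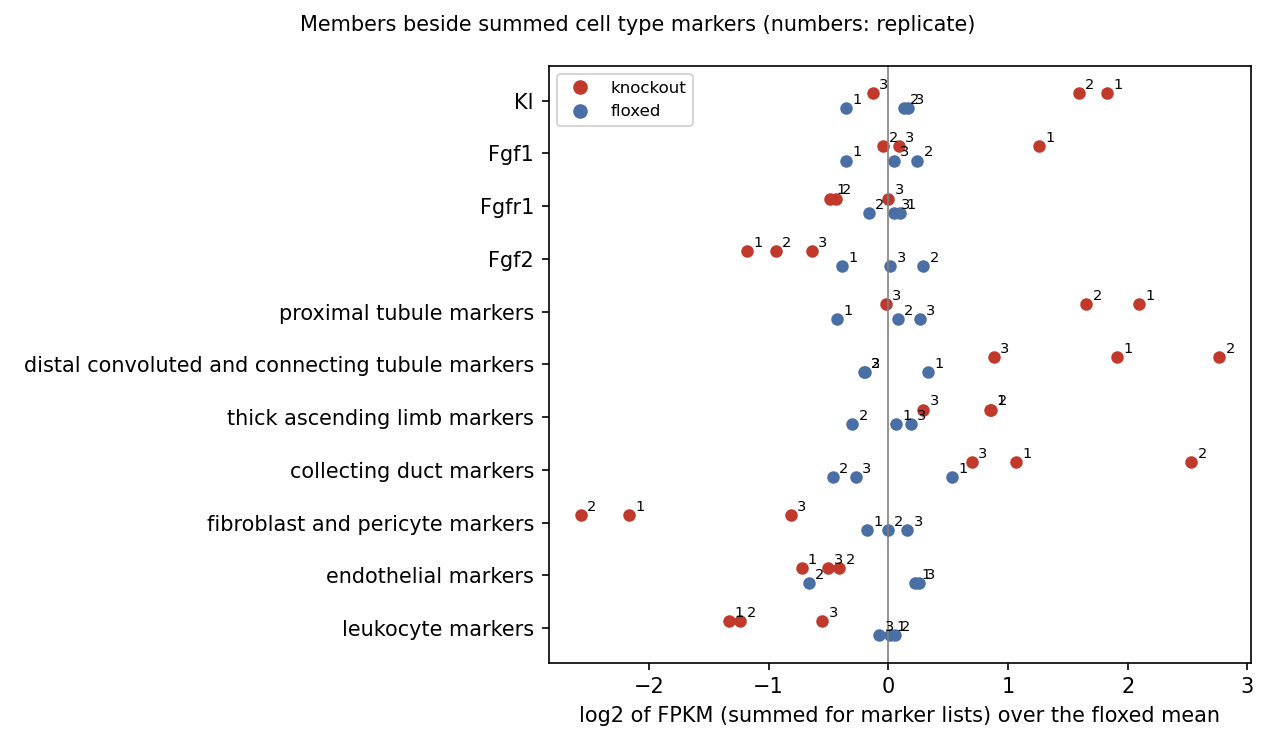
Each row shows the 3 knockout libraries (red, upper) and the 3 floxed libraries (blue, lower) as the log2 of FPKM over the floxed mean, for 4 of the 10 genes and for the summed FPKM of 7 marker lists; numbers are replicate numbers. Kl and the summed proximal tubule markers show the same split, with knockout replicates 1 and 2 to the right and replicate 3 among the floxed libraries, while Fgf2, fibroblast and leukocyte sums lie to the left in all 3 knockout libraries.

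Among the ligands, Fgf1 made up most of the transcript level, Fgf2 and Fgf7 read lower in all 3 knockout libraries, and Fgf9 and Fgf10 showed no separation. Fgf1, an acidic FGF that binds all the receptors, read 52.11, 21.13 and 23.14 FPKM in knockout replicates 1, 2 and 3, against 17.07, 25.76 and 22.53 FPKM in floxed replicates 1, 2 and 3. Only knockout replicate 1 lay outside the floxed range. The log2 fold change of 0.44 (SE 0.343, 95% interval -0.37 to 1.25, limma adjusted p = 0.438) was 0.04 without that library. Fgf1 supplied 90.3%, 74.7% and 76.6% of the summed FPKM of the 5 ligands in knockout replicates 1, 2 and 3, against 68.0%, 76.4% and 75.9% in floxed replicates 1, 2 and 3.

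Fgf2 read 1.33, 1.57 and 1.93 FPKM in knockout replicates 1, 2 and 3, against 2.3, 3.68 and 3.04 FPKM in floxed replicates 1, 2 and 3. All knockout libraries were below all floxed libraries, at means of 1.61 ± 0.302 and 3.01 ± 0.691 FPKM (SD, n = 3 each). The log2 fold change of -0.61 (SE 0.185, 95% interval -1.05 to -0.17) missed the threshold (limma adjusted p = 0.119), and the adjusted p was 0.0498 without knockout replicate 3. Of all tested genes, 21.7% were lower in every knockout library than in any floxed library, and 1 of the 8 tested members, Fgf2, was among them. Fgf7, also called keratinocyte growth factor, read 0.47, 0.38 and 0.51 FPKM in knockout replicates 1, 2 and 3, against 0.93, 0.59 and 0.95 FPKM in floxed replicates 1, 2 and 3. The groups were separate (exact two-sided permutation p = 0.1, the smallest possible), and each value rests on roughly 15.9 to 44.7 fragments.

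Summed markers of fibroblasts and pericytes, cells that make Fgf2 and Fgf7, were lower in the same libraries. The 9 markers added up to 138, 104 and 353 FPKM in knockout replicates 1, 2 and 3, against 550, 618 and 693 FPKM in floxed replicates 1, 2 and 3. All 9 had a log2 fold change below 0, of which 1, the matrix protein gene Dpt, passed the limma threshold. Without knockout replicate 3, 8 of 9 passed as lower, against 24.4% of all tested genes in either direction. The 7 leukocyte markers added up to 69.4 to 119 FPKM in knockout and 166 to 182 FPKM in floxed libraries. The part of these cells in the values of Fgf2 and Fgf7 was not tested. Of the other marker sums, thick ascending limb (6 markers) lay at 858 to 1275 FPKM in knockout and 569 to 799.58 FPKM in floxed libraries, and collecting duct (8 markers) at 230.28 to 820.28 FPKM in knockout and 103 to 205 FPKM in floxed libraries. Both were higher in every knockout library. Endothelial (7 markers, 108 to 134 FPKM in knockout and 113 to 214 FPKM in floxed libraries) and urothelial sums (7 markers, 6.9 to 57.98 FPKM in knockout and 24.91 to 92.99 FPKM in floxed libraries) overlapped. Podocyte sums (5 markers) were lower in every knockout library, at 66.8 to 88.3 FPKM, against 92.1 to 139.86 FPKM in floxed libraries. None of the markers in these 5 lists or in the leukocyte list passed the limma threshold with all libraries. Without knockout replicate 3, 4 thick ascending limb and 5 collecting duct markers passed as higher, and 5 leukocyte, 1 podocyte and 1 urothelial marker passed as lower. Of all tested genes, 24.4% passed in that setting, in either direction.

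Fgf9 read 3.36, 5.01 and 4.43 FPKM in knockout replicates 1, 2 and 3, against 4.5, 3.41 and 2.98 FPKM in floxed replicates 1, 2 and 3. The ranges overlapped (log2 fold change 0.19, SE 0.189, 95% interval -0.26 to 0.63, limma adjusted p = 0.550). Fgf10, the stromal partner of Fgf7, was the lowest member at 0.43, 0.2 and 0.21 FPKM in knockout replicates 1, 2 and 3, against 0.31, 0.27 and 0.17 FPKM in floxed replicates 1, 2 and 3. The ranges overlapped (exact two-sided permutation p = 0.8, where 3 against 3 libraries allow no less than 0.1), and these values stand for roughly 12.3 to 29.3 fragments.

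The promoter windows of Fgf2 (chr3:37348403-37348702, plus strand, RefSeq, GRCm38.p6) and Fgf7 (chr2:126034408-126034707, plus strand, RefSeq, GRCm38.p6) are shown because both genes were lower in every knockout library. With the same motifs in capitals, the Fgf2 window holds 1 GC box and the Fgf7 window 1 CCAAT box, with no other match. Their G and C content is 62.7% for Fgf2 and 45.7% for Fgf7.
Fgf2 promoter: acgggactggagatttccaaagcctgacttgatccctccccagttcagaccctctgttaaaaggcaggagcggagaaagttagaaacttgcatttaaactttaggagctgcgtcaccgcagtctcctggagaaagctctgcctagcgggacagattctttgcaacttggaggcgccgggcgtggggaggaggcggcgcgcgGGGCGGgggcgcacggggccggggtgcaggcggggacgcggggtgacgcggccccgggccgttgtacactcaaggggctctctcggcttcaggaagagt
Fgf7 promoter: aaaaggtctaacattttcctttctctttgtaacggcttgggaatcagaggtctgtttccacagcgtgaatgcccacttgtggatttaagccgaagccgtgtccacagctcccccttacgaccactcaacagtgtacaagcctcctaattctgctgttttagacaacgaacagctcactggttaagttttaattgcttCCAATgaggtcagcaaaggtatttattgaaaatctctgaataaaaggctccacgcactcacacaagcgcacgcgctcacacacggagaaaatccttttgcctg

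The 4 receptors together had a level that overlapped between genotypes, while the balance among them differed in part of the libraries. Their summed FPKM was 51.7 ± 2.86 in knockout and 49.3 ± 3.70 in floxed kidneys (SD, n = 3 each). Fgfr1, a receptor of stromal and tubule cells and a partner of Klotho, took 29.4%, 28.3% and 42.9% of that sum in knockout replicates 1, 2 and 3, against 42.0%, 40.5% and 45.5% in floxed replicates 1, 2 and 3. Fgfr4 took 31.2%, 32.3% and 32.5% in knockout replicates 1, 2 and 3, against 24.0%, 28.1% and 27.0% in floxed replicates 1, 2 and 3. The shares of Fgfr4 were separate between the groups, and those of Fgfr1 overlapped through knockout replicate 3.

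**Figure D3:**
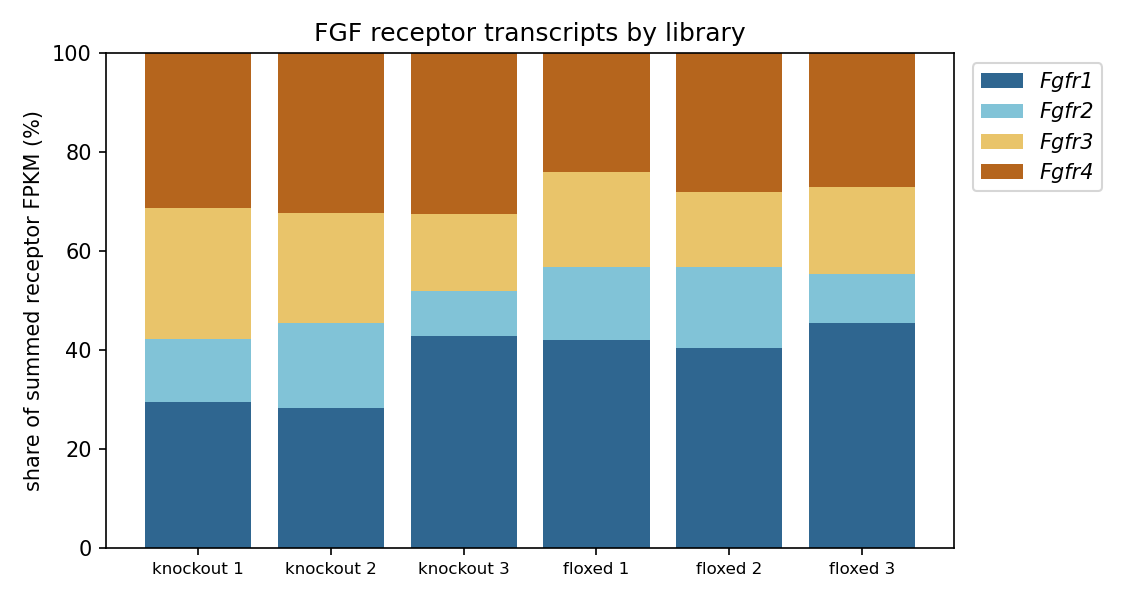
Share of the summed FPKM of the 4 FGF receptors taken by each receptor, in percent, in the 3 knockout libraries (left) and the 3 floxed libraries (right). The Fgfr4 share is 31.2% to 32.5% in knockout and 24.0% to 28.1% in floxed libraries, and knockout replicate 3 has an Fgfr1 share of 42.9%, within the floxed range.

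Fgfr4, a receptor of epithelial cells and hepatocytes, read 16.0, 17.71 and 15.95 FPKM in knockout replicates 1, 2 and 3, against 12.84, 13.09 and 12.93 FPKM in floxed replicates 1, 2 and 3. It was higher in all 3 knockout libraries, replicate 3 included, by 27.8% of the floxed mean. The log2 fold change of 0.33 (SE 0.107, 95% interval 0.08 to 0.58) missed the threshold (limma adjusted p = 0.133). Of all tested genes, 10% (1340 of 13390) were higher in every knockout library than in any floxed one, and Fgfr4 was 1 of the 8 tested members to be so. Leaving out any single library kept its log2 fold change between 0.28 and 0.35.

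The Fgfr4 promoter window (chr13:55152568-55152867, plus strand, RefSeq, GRCm38.p6) is shown because Fgfr4 was the tested member with separate groups and higher knockout values. It is 65.3% G and C and holds 4 GC boxes, in capitals, with no match to the other motifs.
Fgfr4 promoter: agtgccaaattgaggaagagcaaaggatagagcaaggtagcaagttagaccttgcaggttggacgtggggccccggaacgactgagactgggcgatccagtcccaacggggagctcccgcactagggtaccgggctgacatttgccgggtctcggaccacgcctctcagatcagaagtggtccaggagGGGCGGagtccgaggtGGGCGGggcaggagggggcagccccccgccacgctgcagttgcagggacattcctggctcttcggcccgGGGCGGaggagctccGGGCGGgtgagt

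Fgfr1 read 15.06, 15.51 and 21.05 FPKM in knockout replicates 1, 2 and 3, against 22.49, 18.84 and 21.8 FPKM in floxed replicates 1, 2 and 3. Knockout replicates 1 and 2 were below every floxed library, and replicate 3 was within their range, the mirror of Kl. The log2 fold change was -0.29 (SE 0.159, 95% interval -0.66 to 0.09, limma adjusted p = 0.293), and -0.43 (limma adjusted p = 0.0466) without knockout replicate 3. The nearest profiles to Fgfr1 were those of Tor3a, Pramef8, Taf7, Zfp644 and Afap1, with mean absolute differences of 0.0167 to 0.0386, against a median of 0.216 over all tested genes.

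Fgfr3 read 13.63, 12.17 and 7.63 FPKM in knockout replicates 1, 2 and 3, against 10.33, 7.08 and 8.46 FPKM in floxed replicates 1, 2 and 3. Knockout replicates 1 and 2 were the highest libraries, and replicate 3 was among the floxed ones (log2 fold change 0.31, SE 0.231, 95% interval -0.23 to 0.86, limma adjusted p = 0.416). Without knockout replicate 3 the log2 fold change was 0.54 (limma adjusted p = 0.0682). Fgfr2, whose epithelial splice form receives Fgf7 and Fgf10, read 6.56, 9.37 and 4.47 FPKM in knockout replicates 1, 2 and 3, against 7.88, 7.54 and 4.73 FPKM in floxed replicates 1, 2 and 3. Its group means nearly coincided, at 6.80 ± 2.46 FPKM in knockout and 6.72 ± 1.73 FPKM in floxed kidneys (SD, n = 3 each). The log2 fold change of -0.01 had a 95% interval of -0.66 to 0.65, which leaves room for a difference in either direction (limma adjusted p = 0.991), and its sign turned with the scaling. Epithelial and mesenchymal splice forms of Fgfr1, Fgfr2 and Fgfr3 cannot be told apart in gene-level values.

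**Figure D4:**
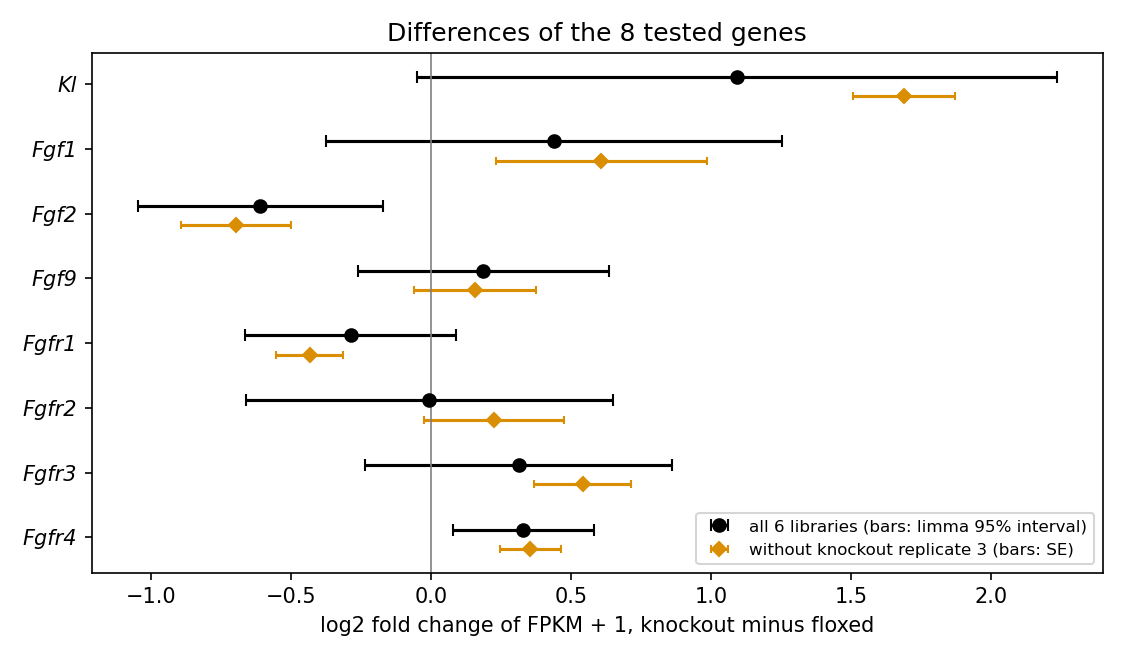
Log2 fold changes of FPKM + 1, knockout minus floxed, for the 8 tested genes, with all 6 libraries (black, bars are limma 95% intervals) and without knockout replicate 3 (orange, bars are SE). Intervals of Fgf2 and Fgfr4 lie to one side of 0 before adjustment over all genes, and Kl moves from 1.09 to 1.69 when knockout replicate 3 is left out.

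The order of the mean levels over all libraries was the same in both genotypes, from Kl through Fgf1, Fgfr1, Fgfr4, Fgfr3, Fgfr2, Fgf9, Fgf2 and Fgf7 down to Fgf10. In knockout kidneys neighbours with overlapping ranges were Kl and Fgf1, Fgfr1 and Fgfr4, Fgfr3 and Fgfr2, Fgfr2 and Fgf9, and Fgf7 and Fgf10. In floxed kidneys they were Kl and Fgf1, Fgf1 and Fgfr1, Fgfr3 and Fgfr2, and Fgf9 and Fgf2. Fgfr1 and Fgfr4 thus had separate ranges in floxed kidneys, with Fgfr1 at 21.0 ± 1.94 and Fgfr4 at 13.0 ± 0.127 FPKM, and overlapping ranges in knockout kidneys, with Fgfr1 at 17.2 ± 3.34 and Fgfr4 at 16.6 ± 1.002 FPKM (SD, n = 3 each). The order of this pair in knockout kidneys rested on replicate 3, without which the knockout means were 16.9 FPKM for Fgfr4 and 15.3 FPKM for Fgfr1.

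Other FGF ligands were scarce. Of 17 listed, 14 were in the table and Fgf3, Fgf6 and Fgf8 were not analysed here. Only Fgf11, an intracellular FGF, and Fgf18 passed the filter on low values. Fgf11 read 1.82, 3.26 and 1.62 FPKM in knockout replicates 1, 2 and 3, against 3.19, 3.28 and 3.3 FPKM in floxed replicates 1, 2 and 3 (limma adjusted p = 0.245). Fgf18 read 2.9, 1.32 and 1.63 FPKM in knockout replicates 1, 2 and 3, against 1.05, 1.65 and 1.08 FPKM in floxed replicates 1, 2 and 3 (limma adjusted p = 0.368). Fgf23, the bone hormone that needs Klotho, was listed at no more than 0.04 FPKM in knockout and 0.08 FPKM in floxed libraries. Fgf15 and Fgf20 were listed at 0 in all 6.

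None of the 9 tested co-receptors and binding proteins passed. At an unadjusted limma p under 0.05, 1 was higher and 4 were lower, against 24.7% of all tested genes in either direction. Without knockout replicate 3, 1 passed as higher and 3 as lower (24.4% of all tested genes). The list median of -0.24 turned to 0.47 when genes needed a mean FPKM of at least 5. Flrt2 and Flrt3, both among the 4, passed the filter on low values through the floxed libraries, so their counts are no support for a direction. The membrane proteins Flrt1 and Flrt2, of a family that binds FGF receptors, read in opposite directions. Flrt1 had 10.74, 10.91 and 7.23 FPKM in knockout replicates 1, 2 and 3, against 6.34, 5 and 4.7 FPKM in floxed replicates 1, 2 and 3 (limma adjusted p = 0.0975). Flrt2 had 0.68, 0.89 and 1.06 FPKM in knockout replicates 1, 2 and 3, against 1.61, 2.08 and 2.57 FPKM in floxed replicates 1, 2 and 3 (limma adjusted p = 0.0933). The adhesion molecule Ncam1, which binds FGF receptors, had 1.86, 2.44 and 4.41 FPKM in knockout replicates 1, 2 and 3, against 6.89, 7.62 and 5.26 FPKM in floxed replicates 1, 2 and 3 (limma adjusted p = 0.0962).

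Among 21 genes of heparan sulphate proteoglycans and their enzymes, which hold FGFs at the cell surface, 0 passed. At an unadjusted limma p under 0.05, 0 were higher and 6 lower, against 24.7% of all tested genes in either direction, and the list median was -0.17. Without knockout replicate 3, 6 passed as lower, against 24.4% of all tested genes, and the median was -0.44. The median of all tested genes in that setting is not given here, so -0.44 is no sign of a fall particular to this list. The 3 with the smallest p were lower in every knockout library than in any floxed one, as were 21.7% of all tested genes. Sdc3, a syndecan, read 6.88, 6.15 and 10.34 FPKM in knockout replicates 1, 2 and 3, against 15.91, 16.99 and 20.67 FPKM in floxed replicates 1, 2 and 3 (limma adjusted p = 0.0570). The glypican Gpc6 read 1.13, 1.27 and 2.7 FPKM in knockout replicates 1, 2 and 3, against 4.55, 4.99 and 6.57 FPKM in floxed replicates 1, 2 and 3 (limma adjusted p = 0.0635). Sulf1, a sulphatase that trims heparan sulphate and dampens FGF signalling, read 1.27, 1.96 and 4.42 FPKM in knockout replicates 1, 2 and 3, against 6.44, 12.35 and 9.83 FPKM in floxed replicates 1, 2 and 3 (limma adjusted p = 0.0740).

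Genes of the relay inside the cell had a median close to that of all genes. Of 18 tested, 0 passed, and the median was -0.15. At an unadjusted limma p under 0.05, 1 was lower and 0 higher, against 24.7% of all tested genes in either direction. In 6 of 18 all knockout libraries were below all floxed libraries, against 21.7% of all tested genes. Without knockout replicate 3, 3 passed as lower, against 24.4% of all tested genes in either direction. The gene under 0.05 was the adaptor Shc1, at 23.29, 25.41 and 31.44 FPKM in knockout replicates 1, 2 and 3, against 37.03, 38.65 and 36.14 FPKM in floxed replicates 1, 2 and 3 (limma adjusted p = 0.110). The receptor docking protein Frs2 averaged 5.32 ± 0.769 FPKM in knockout and 6.93 ± 0.679 FPKM in floxed kidneys (limma adjusted p = 0.219). The adaptor Grb2 averaged 35.1 ± 5.49 FPKM in knockout and 41.7 ± 0.645 FPKM in floxed kidneys (SD, n = 3 each, limma adjusted p = 0.278).

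Feedback inhibitors and targets of FGF signalling had the lowest median of the pathway lists, -0.48, against -0.12 over all tested genes. Of 13 tested, 0 passed, with 7 lower and 1 higher at an unadjusted limma p under 0.05 (24.7% of all tested genes in either direction), and 7 passed as lower without knockout replicate 3 (24.4% of all tested genes in either direction). Spred3, of a family of Ras and MAP kinase inhibitors, read 3.02, 2.07 and 2.79 FPKM in knockout replicates 1, 2 and 3, against 6.3, 5.15 and 4.39 FPKM in floxed replicates 1, 2 and 3 (limma adjusted p = 0.0759). The MAP kinase phosphatase Dusp5 read 1.85, 1.85 and 3.75 FPKM in knockout replicates 1, 2 and 3, against 4.58, 5.53 and 7.18 FPKM in floxed replicates 1, 2 and 3 (limma adjusted p = 0.0947). The ETS transcription factor Etv1 was higher in each knockout library, at 3.56, 2.57 and 3.46 FPKM, against 2.16, 1.77 and 1.66 FPKM in floxed replicates 1, 2 and 3 (limma adjusted p = 0.117). Dusp6, a phosphatase used as a readout of FGF signalling and named here after its values were seen, averaged 18.6 ± 4.43 FPKM in knockout and 28.1 ± 4.69 FPKM in floxed kidneys (SD, n = 3 each, limma adjusted p = 0.149). Others of the list did not fall. Etv5 was higher in each knockout library, at means of 4.51 and 3.70 FPKM (limma adjusted p = 0.334). Means in knockout and floxed kidneys were 2.30 and 2.29 FPKM for Etv4, and 3.49 and 3.47 FPKM for Dusp4. Of the 13, 10 had a log2 fold change below 0 and 3 above. These genes also answer to other growth factor receptors.

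**Figure D5:**
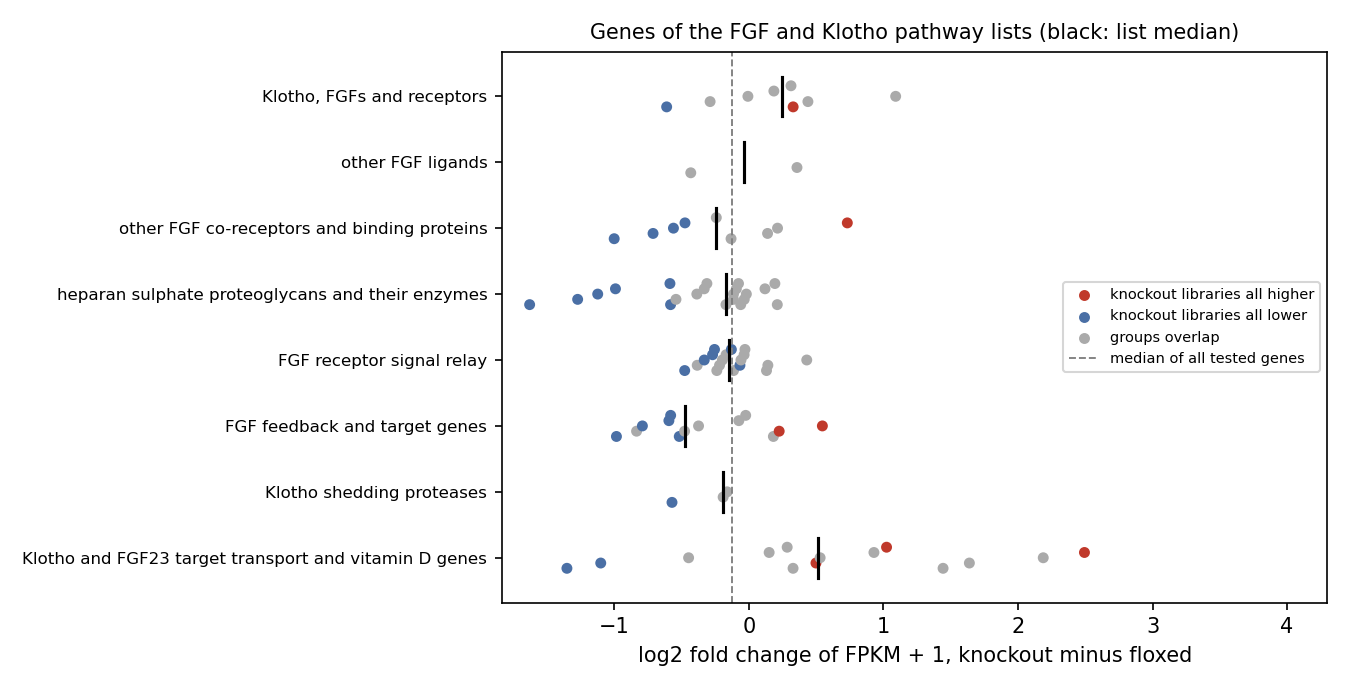
Log2 fold change of FPKM + 1, knockout minus floxed, of each tested gene in the 8 members and 7 pathway lists; red and blue mark genes whose 3 knockout libraries are all above or all below the 3 floxed libraries, black bars are list medians and the dashed line is the median of all tested genes, -0.12. Feedback and target genes have a median of -0.48, and the Klotho and FGF23 target genes have a median of 0.51 with the widest spread.

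Of 3 proteases that release Klotho from the cell surface, 0 passed. At an unadjusted limma p under 0.05 there was 1, Adam17, against 24.7% of all tested genes in either direction. Without knockout replicate 3, 2 passed as lower, against 24.4% of all tested genes in either direction. Adam17 read 10.35, 11.83 and 14.65 FPKM in knockout replicates 1, 2 and 3, against 18.4, 18.96 and 18.27 FPKM in floxed replicates 1, 2 and 3, with no overlap (limma adjusted p = 0.0929). Adam10 read 26.4, 35.28 and 63.25 FPKM in knockout replicates 1, 2 and 3, against 44.78, 42.39 and 43.89 FPKM in floxed replicates 1, 2 and 3. Knockout replicates 1 and 2 were below every floxed library and replicate 3 above them all (log2 fold change -0.16, limma adjusted p = 0.741, against -0.50 and 0.0477 without replicate 3). Bace1 averaged 4.65 ± 0.978 FPKM in knockout and 5.39 ± 0.605 FPKM in floxed kidneys (SD, n = 3 each, limma adjusted p = 0.505).

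Genes of phosphate and calcium transport and vitamin D handling, on which Klotho and FGF23 act, were listed with the early gene Egr1. Of these, 11 had a log2 fold change above 0 and 3 below. Of 14 tested, 0 passed, with 5 higher and 2 lower at an unadjusted limma p under 0.05 (24.7% of all tested genes) and a median of 0.51. Without knockout replicate 3, 6 passed as higher and 2 as lower (24.4% of all tested genes). Vdr, the receptor through which active vitamin D works, read 54.57, 46.27 and 48.31 FPKM in knockout replicates 1, 2 and 3, against 24.75, 25.26 and 21.79 FPKM in floxed replicates 1, 2 and 3. It was about as high in knockout replicate 3 as in the other two, unlike Kl, and stood just outside the threshold (log2 fold change 1.02, SE 0.119, limma adjusted p = 0.0547). S100g, a calcium-binding protein of the distal tubule, read 324.54, 766.11 and 162.95 FPKM in knockout replicates 1, 2 and 3, against 102.98, 49.69 and 42.44 FPKM in floxed replicates 1, 2 and 3 (limma adjusted p = 0.0811). Egr1, an early gene that FGF23 induces through Klotho, read 13.15, 20.87 and 39.12 FPKM in knockout replicates 1, 2 and 3, against 39.5, 73.22 and 67.58 FPKM in floxed replicates 1, 2 and 3 (limma adjusted p = 0.117). The phosphate carrier Slc34a1, named after its values were seen, had 1563, 1464 and 325 FPKM in knockout replicates 1, 2 and 3, against 251, 368 and 399 FPKM in floxed replicates 1, 2 and 3, the same split as Kl (limma adjusted p = 0.197). Slc34a1 is also among the proximal tubule markers summed above, and S100g, Calb1 and Trpv5 of this list are among the distal markers.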

How the data were processed

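Whole-kidney RNA of 6 obstructed kidneys was sequenced after TRIzol extraction and Illumina library preparation, per the labels' protocols. The authors deposited FPKM for each gene in each library, per the file headers, and the values carry 2 decimals. The build named is mm9, per the submitters' processing notes. Aligner, counting tool, annotation and strand use are not given in the sources used. Depth was estimated from FPKM values of single-length RefSeq transcripts of 300 to 2000 nucleotides, of which 69.3% to 75.0% lay within 0.2 of a whole fragment (40% if spread evenly). It is approximate, as are fragment numbers made from it, which cover counting only.

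Genes that reached 1 FPKM in at least 3 of 6 libraries were fitted together as log2(FPKM + 1) by limma 3.58.1 (R 4.3.3). The fit used a mean-variance trend, group as its single term, two-sided p-values and Benjamini-Hochberg adjustment. This scale understates changes of low genes. Members under that filter were tested by exact permutation of the 6 libraries (scipy 1.17.1). The fit was checked on simulated data. The text names all members, Abl1, up to 3 genes with the smallest p from each of 7 pathway lists, and the 5 nearest profiles of Kl and Fgfr1, of which 1 is not reported here. Members and lists were chosen with earlier results of these data known. There were 16 alternatives, on pseudocount, filter, scaling, variance model, pairing and left-out libraries. Promoter windows came from RefSeq (GRCm38.p6). Those of 1 chromosome were left out before members were matched and before shares over all windows were taken. In the rest, 8 of the 10 members were matched, and no coordinates were joined to the mm9 values. Files were read and plotted with Python 3.11.15, pandas 2.3.3, numpy 2.4.6 and matplotlib 3.10.9.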

Additional observations from a re-analysis of the deposited data

How the results depend on the processing

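The count of genes past the threshold over the whole table was 9 and moved under most alternatives. It was 1 with a pseudocount of 0.1 or 0.01, with no filter, with a mean FPKM of at least 5, with median-ratio or quantile scaling and without the mean-variance trend. It was 10 with TPM scaling and 1456 with array weights, whose estimation stopped before convergence. Leaving out 1 library at a time gave 0 to 3271 genes, the lowest without floxed replicate 2 or 3 and the highest without knockout replicate 3. The count of members past the threshold was 0 under the 10 alternatives that kept all libraries and 0 to 3 over those that left out 1, the 3 being reached without knockout replicate 3. Abl1 kept its direction and its side of the threshold in all 16. Among the members, Fgfr2 turned to 0.12 with median-ratio scaling, 0.17 with quantile scaling and 0.11 with array weights, and lay between -0.24 and 0.23 over the left-out libraries. Fgf10 lay between -0.051 and 0.075 over the left-out libraries. Of the other genes named, Bace1 turned to 0.033 with quantile scaling, and Adam10 lay between -0.50 and 0.11 over the left-out libraries. The median of the co-receptor list, -0.24, was -0.41 and -0.44 with pseudocounts of 0.1 and 0.01, 0.47 with a mean FPKM of at least 5, where fewer genes were tested, -0.17, -0.04 and -0.35 with median-ratio, quantile and TPM scaling, and -0.35 without floxed replicate 1. That of the other ligands turned to 0.20 with quantile scaling, that of the relay was -0.02 with median-ratio scaling, and that of the proteases was -0.50 without knockout replicate 3. The median of all tested genes without knockout replicate 3 is not given beside it. Of the 20 pathway genes named by rule, 13 passed with array weights and 15 without knockout replicate 3. Over all tested genes, 1456 passed with array weights and 24.4% without knockout replicate 3. The 20 were named for their small p in these same data, so their counts are no support for the lists. Median-ratio scaling moved the median of all genes from -0.12 to 0.0012 and quantile scaling to -0.0085, and the cause of these shifts is the scaling itself. For the other alternatives the cause was not tested.

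With the replicate number as a block, 2 genes and 0 members passed. Same-numbered knockout and floxed libraries had correlations of deviations of -0.13, -0.07 and 0.03 for numbers 1, 2 and 3. Not every library correlated best with its own number, so no pairing by number was shown. With 3 libraries per group, correlations this small cannot exclude a pairing. The block changed no call of a member. Fgf7 and Fgf10 gave no value under a mean FPKM of at least 5, and Fgf2 and Fgf9 were also below it. At this depth Fgf7 and Fgf10 rest on few fragments, which limits any statement on them.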

Other observations

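Klb, Fgf13, Fgf17 and Fgf21 lay under the filter on low values and were lower in every knockout library than in any floxed one. Under the filter were 12 of the other FGF ligands and 1 of the co-receptors and binding proteins. The share of such separate genes was 21.7% above the filter, and the share under it was not computed. Klb, the co-receptor that serves FGF21 and FGF15 as Klotho serves FGF23, read 0.19, 0.19 and 0.18 FPKM in knockout replicates 1, 2 and 3, against 0.3, 0.3 and 0.25 FPKM in floxed replicates 1, 2 and 3. Fgf13, an intracellular FGF, read 0.29, 0.28 and 0.15 FPKM in knockout replicates 1, 2 and 3, against 0.49, 0.48 and 0.53 FPKM in floxed replicates 1, 2 and 3. Fgf21 read 0.13, 0.06 and 0.06 FPKM in knockout replicates 1, 2 and 3, against 0.26, 0.23 and 0.17 FPKM in floxed replicates 1, 2 and 3. Fgf17 read 0.11, 0.18 and 0 FPKM in knockout replicates 1, 2 and 3, against 0.25, 0.22 and 0.23 FPKM in floxed replicates 1, 2 and 3. These genes were picked after their values were seen, were not tested, and rest on few fragments each.

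Fgfrl1, a receptor-like protein with no kinase domain, read 13.37, 13.01 and 15.3 FPKM in knockout replicates 1, 2 and 3, against 11.1, 10.54 and 14.07 FPKM in floxed replicates 1, 2 and 3, and the ranges overlapped (limma adjusted p = 0.379). Cyp27b1, the enzyme that activates vitamin D, read 4.65, 10.7 and 22.35 FPKM in knockout replicates 1, 2 and 3, against 9.92, 8.08 and 7.6 FPKM in floxed replicates 1, 2 and 3 (limma adjusted p = 0.713). Cyp24a1, which breaks vitamin D down, read 11.79, 30.6 and 41 FPKM in knockout replicates 1, 2 and 3, against 17.78, 8.23 and 13.16 FPKM in floxed replicates 1, 2 and 3 (limma adjusted p = 0.257). Both were highest in knockout replicate 3, where Kl was lowest of its group. The floxed libraries, with Kl at 19.89 to 28.55 FPKM, did not share these high levels, and a relation to Kl was not tested. All 3 genes were picked after their values were seen.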
